A study of Mus musculus with 27 samples.

Results

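The Hippo pathway effectors described here are 10 genes chosen by name: the coactivators Yap1 and Wwtr1 (which encodes TAZ), the DNA-binding partners Tead1, Tead2, Tead3 and Tead4, the angiomotins Amot and Amotl2, the kinase gene Lats2, and Ankrd1. Each matched 1 of the 22524 gene IDs of the mouse RNA-seq count data, and all 10 had counts in some library of every cell type. The data comprised 27 libraries. The 18 organoid libraries came from 9 jejunal cultures of C57BL/6J wild-type male mice, 8 to 12 weeks old. There were 3 cultures from each of 3 animal facilities: SPF facility 1 (SR), SPF facility 2 (SE) and a germ-free facility (GF). The mice of a facility were cohoused littermates. A further 6 libraries came from m-ICc12 cells, an immortalised small intestinal epithelial cell line of the mouse, and 3 from untreated mouse embryonic fibroblasts (MEF). For each organoid and m-ICc12 culture there was an untreated library and one after TNF (5 ng/ml, 8 h), going by the labels. Nothing in the labels said that the 3 m-ICc12 or the 3 MEF replicates were separate cultures, so p-values that rest on them measure the spread between these samples, which may be technical.

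Hippo signalling is a kinase cascade that keeps the coactivators YAP and TAZ out of the nucleus. The kinases MST1 and MST2 activate LATS1 and LATS2, which phosphorylate YAP and TAZ, and angiomotins bind YAP at cell junctions. Unphosphorylated YAP and TAZ enter the nucleus and drive transcription through the TEAD factors, and in the intestinal epithelium the pathway is known for its part in regeneration after injury. Ankrd1, Amotl2 and Lats2 are targets of YAP/TAZ-TEAD, and the products of the latter 2 restrain YAP, which makes them feedback genes. RNA counts carry no information on phosphorylation or on the location of a protein.

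The treatment labels could not be taken at face value. In all 12 pairs the name of the deposited data gave the opposite treatment to the label, and under the TNF label 5 of 5 TNF target genes were at lower levels, in organoids as in m-ICc12 cells. Nfkbia, the gene of the NF-κB inhibitor IκBα, stood at 23.6 to 36.4 CPM (counts scaled to the library's size) in organoid libraries labelled TNF-treated and at 148 to 227 CPM in those labelled untreated. Groups are therefore given as labelled, and the members' fold changes and counts of calls were repeated with the labels exchanged. Not every exchanged value is printed, and none is for the lists of other pathway and target genes. By the data names, the organoid and m-ICc12 libraries labelled untreated would be TNF-treated. Comparisons of them with untreated MEF would then mix TNF treatment with cell type. Library totals ran from 6071103 counts (culture M1, labelled TNF-treated) to 43843615, and 3 counts, taken as the limit of detection, corresponded to 0.0684 to 0.494 CPM. Of 13 intestinal epithelial markers none fell under 1 CPM in all organoid libraries of a label, and their sum there was 3963 to 5833 CPM. In m-ICc12 cells the 13 markers summed to 531 to 770 CPM, of which Krt20 made up 480 to 715 CPM, while Vil1 was at 17.3 to 41.3 CPM and Cdx2, Fabp1, Alpi, Lyz1, Muc2 and Chga stayed under 1 CPM in all 6 libraries. There 4 kidney tubule markers summed to 1047 to 1363 CPM. In MEF the fibroblast markers summed to 5790 to 6970 CPM with Thy1 and Lum at 0 and Dcn under 1 CPM. The 9 fibroblast markers summed to 12.3 to 32.1 CPM in organoids, and leukocyte markers reached 9.61 CPM.

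Yap1 and Wwtr1 encode paralogous coactivators, and the 3 cell types differed far more in the latter than in the former. Yap1 (9:7931999-8004596, minus strand, GRCm38) was at 111, 135 and 167 CPM (lowest, median and highest) in the 9 organoid libraries labelled untreated. It was at 97.1, 103 and 99.9 CPM in the 3 m-ICc12 libraries with that label and at 184, 189 and 187 CPM in the 3 MEF libraries. None of these ranges overlapped: MEF were highest and m-ICc12 lowest. Organoids were 0.43 ± 0.12 log2 units (standard error, SE) above m-ICc12 (adjusted p = 0.006, edgeR) and 0.47 ± 0.11 below MEF (log2 fold change -0.47, adjusted p = 0.0015).

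Wwtr1 (3:57455649-57575910, minus strand) was present only in traces in organoids. It was at 0.0887, 0.163 and 0.405 CPM in the organoid libraries labelled untreated, from 2 to 7 counts a library. The m-ICc12 libraries held 147, 170 and 156 CPM and the MEF libraries 139, 131 and 129 CPM. Organoids were thus lower than both by a log2 fold change of -9.68 ± 0.23 against m-ICc12 (adjusted p = 4e-14) and -9.44 ± 0.24 against MEF (adjusted p = 9.1e-15). With 0 of the 9 organoid libraries at 10 counts, Wwtr1 was tested only because the other cell type passed the filter on low counts, and 1 organoid library lay under the limit of 3 counts, so the size of the fold is imprecise. With the labels exchanged the log2 fold changes were -8.81 and -8.53. The highest organoid value, 0.986 CPM from 21 counts, was in culture Z917 labelled TNF-treated. Of the 9 fibroblast markers, Col1a1 was at 0.199 to 4.57 CPM and Vim at 4.24 to 15.5 CPM in organoid libraries labelled untreated. Thy1 and Lum were at 0 there, and Col3a1 and Pdgfra stayed under 1 CPM. Col1a2, Pdgfrb and Dcn did not stay under 1 CPM in all of these libraries, and Vim was also high in m-ICc12 cells. Whether fibroblast RNA was present, and its part in the Wwtr1 counts, was not tested. In bulk samples, fewer cells with a transcript and less of it per cell cannot be told apart. One transcript of Wwtr1, together with Ankrd1 and Amotl2, belongs to an organoid signature that the study chose on these same samples, so the direction of these genes is not independent evidence.

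**Figure D1:**
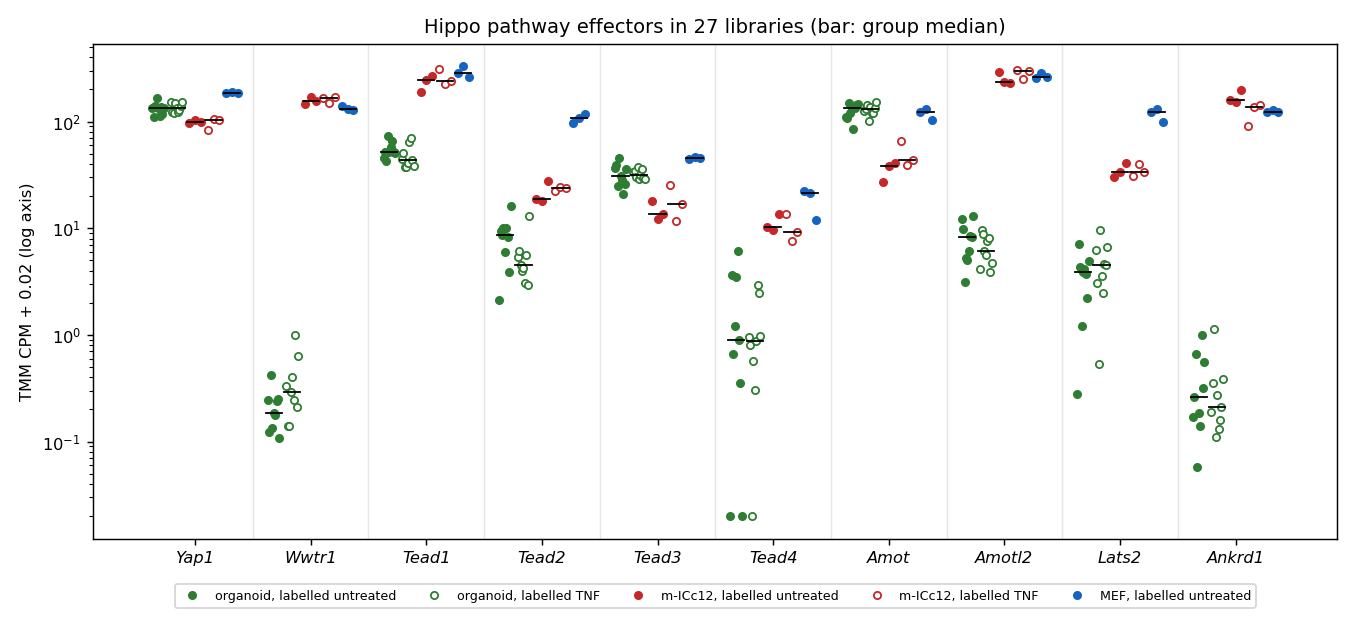
TMM-normalised CPM of the 10 genes in all 27 libraries (log axis, 0.02 CPM added so that 0 can be drawn); 1 point per library, filled for libraries labelled untreated and open for those labelled TNF, with a bar at each group's median. Yap1 and Amot stand close together in organoids and MEF, whereas Wwtr1 and Ankrd1 stand at or under 1.12 CPM in every organoid library and above 90 CPM in every m-ICc12 and MEF library.

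Per kilobase of exon the ratio of the coactivators turned over between the cell types. The log2 ratio of Wwtr1 to Yap1 was -9.62, -8.52 and -7.48 (lowest, median and highest) in organoids labelled untreated, 1.55 to 1.68 in m-ICc12 and 0.41 to 0.55 in MEF. Wwtr1 held 0.127 to 0.558% of the summed level of the pair in organoids, 74.6 to 76.2% in m-ICc12 and 57.1 to 59.4% in MEF. The ratio was lower in organoids than in m-ICc12 by 10.2 log2 units (difference -10.24, p = 0.00909, adjusted p = 0.0227, two-sided exact permutation test over 9 and 3 libraries, with 15 tests of ratios and shares) and lower than in MEF by 9.1 (difference -9.10, same exact p). That p is the smallest which 9 against 3 libraries allow. Between m-ICc12 and MEF the ratios did not overlap, with a difference of 1.14, but 3 against 3 libraries cannot reach a p below 0.1. The sign in MEF depended on the length used: per kilobase of coding sequence the log2 ratio was -0.35 ± 0.07 (SD, n = 3) in MEF, against 0.80 ± 0.06 in m-ICc12 (n = 3) and -9.45 ± 0.70 in organoids (n = 9).

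**Figure D2:**
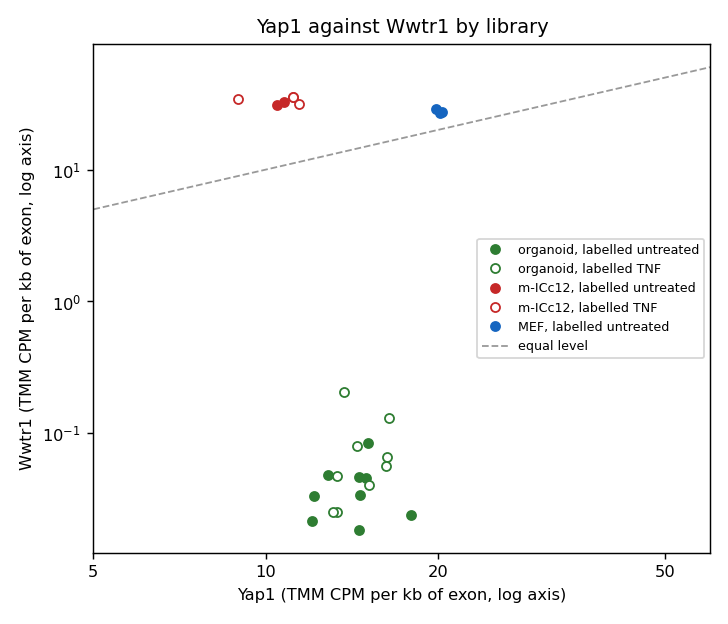
Level of Wwtr1 against that of Yap1 in each library, both as TMM CPM per kilobase of exon on log axes; the dashed line marks equal levels, and colours and fills give cell type and treatment label. All organoid libraries lie far below the line, with Wwtr1 at 0.0186 to 0.206, and all m-ICc12 and MEF libraries lie above it.

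In the order of all 10 levels per kilobase of exon, Amot (median 16.0) and Yap1 (14.6) led in organoids and overlapped each other but no other member. Tead3 (4.62) and Tead1 (3.86) followed and overlapped. From Tead3 down, each member's range overlapped that of the next, and Wwtr1 (0.0342) came last behind Ankrd1 (0.0836). In m-ICc12 the order began with Ankrd1 (55.3), Amotl2 (37.5) and Wwtr1 (32.7), each clear of the next, and ended with Tead3 (2.01). In MEF it began with Ankrd1 (42.3) and Amotl2 (42.0), which overlapped, and ended with Tead4 (5.92). Per kilobase of coding sequence, Yap1 (90.3) stood first in organoids and clear of Tead1 (40.0), which overlapped Amot (38.2). On that scale Tead1 led in m-ICc12 (186.1), overlapping Ankrd1 (161), and in MEF (217), clear of Yap1 (125), and Tead4 came last in both, so the order depended on the length used.

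The 4 Tead genes encode the DNA-binding factors through which YAP and TAZ act, and Tead1, Tead2 and Tead4 were lower in organoids than in either other cell type. Tead1 (7:112679318-112906807, plus strand) was at 42.3, 52.3 and 73.6 CPM in organoids labelled untreated, at 190, 243 and 268 CPM in m-ICc12, and at 284, 329 and 263 CPM in MEF. Organoids lay below both without overlap, by a log2 fold change of -2.07 ± 0.14 against m-ICc12 (adjusted p = 2.3e-09) and -2.40 ± 0.13 against MEF (adjusted p = 1.2e-10). Tead2 (7:45215753-45233644, plus strand) was at 2.12, 8.56 and 16.3 CPM in organoids, at 18.9, 17.8 and 27.5 CPM in m-ICc12, and at 97.3, 108 and 117 CPM in MEF. It rose from organoids to m-ICc12 to MEF with no overlap. Its log2 fold change was -1.34 ± 0.43 against m-ICc12 (adjusted p = 0.012) and -3.68 ± 0.35 against MEF (adjusted p = 1.3e-07). The call against m-ICc12 was lost when culture M3 was left out (-1.11, adjusted p = 0.081). Its exons share 13 bases with Cd37 on the opposite strand, and whether counting used strand was not stated.

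Tead4 (6:128224288-128300823, minus strand) was the most uneven member in organoids labelled untreated. It was at 0, 0.881 and 6.08 CPM there, with a coefficient of variation of 117% over the 9 cultures against 12.8% for Yap1. Under the TNF label Ankrd1 varied more (103% against 89.6% for Tead4). Cultures Z908 and Z919 held no count in the library labelled untreated but 33 and 34 counts in the one labelled TNF-treated, and Z910 held 11 and 0. The gene was at 10.3, 9.55 and 13.7 CPM in m-ICc12 and at 22.3, 21.3 and 11.9 CPM in MEF. The log2 fold change was -2.61 ± 1.06 against m-ICc12 (adjusted p = 0.042) and -3.34 ± 1.00 against MEF (adjusted p = 0.0078). The first of these calls was lost on leaving out any one of Z910, Z911, Z917, Z918, M1, M2 or M3, with adjusted p-values of 0.057 to 0.12.

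Tead3 (17:28331671-28350817, minus strand) was the Tead gene that was higher in organoids than in m-ICc12. It was at 21.1, 31.0 and 45.6 CPM in organoids, at 17.8, 12.2 and 13.5 CPM in m-ICc12, and at 44.8, 46.5 and 46.0 CPM in MEF. Organoids were above m-ICc12 without overlap (1.17 ± 0.25 log2 units, adjusted p = 0.00064). Against MEF they were lower by 0.49 ± 0.20 (log2 fold change -0.49, adjusted p = 0.041), with ranges that overlapped. That second call was lost on leaving out any one of Z910, Z912, Z913, Z918, R1, R2 or R3, with adjusted p-values of 0.057 to 0.1.

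As a share of the summed Tead level per kilobase of exon, Tead3 held 31.6 to 59.3% in organoids labelled untreated, 6.43 to 11.3% in m-ICc12 and 11.6 to 12.7% in MEF. The mean share in organoids was higher by 35.2 percentage points than in m-ICc12 and by 31.2 points than in MEF (exact permutation test, p = 0.00909 and adjusted p = 0.0227 for each). Tead1 held 37.0 ± 6.1% in organoids, 63.8 ± 4.6% in m-ICc12 and 38.4 ± 2.4% in MEF (SD; n = 9, 3 and 3), and the difference between organoids and MEF was not detected (exact permutation p = 0.655). Tead2 held 40.2 ± 4.4% in MEF (n = 3), more than the 15.3 ± 6.5% in organoids (n = 9; exact permutation p = 0.00909, adjusted p = 0.0227). On leaving out a culture of m-ICc12 or MEF, the calls of the Tead1, Tead2 and Tead3 shares in that comparison were lost (adjusted p = 0.091, exact permutation test). The Tead4 shares of organoids, 0 to 13.8%, spanned those of both other cell types. Which paralog led in organoids depended on the length, since per kilobase of coding sequence Tead1 held 58.6 ± 6.0% and Tead3 30.9 ± 5.8% (SD, n = 9).

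**Figure D3:**
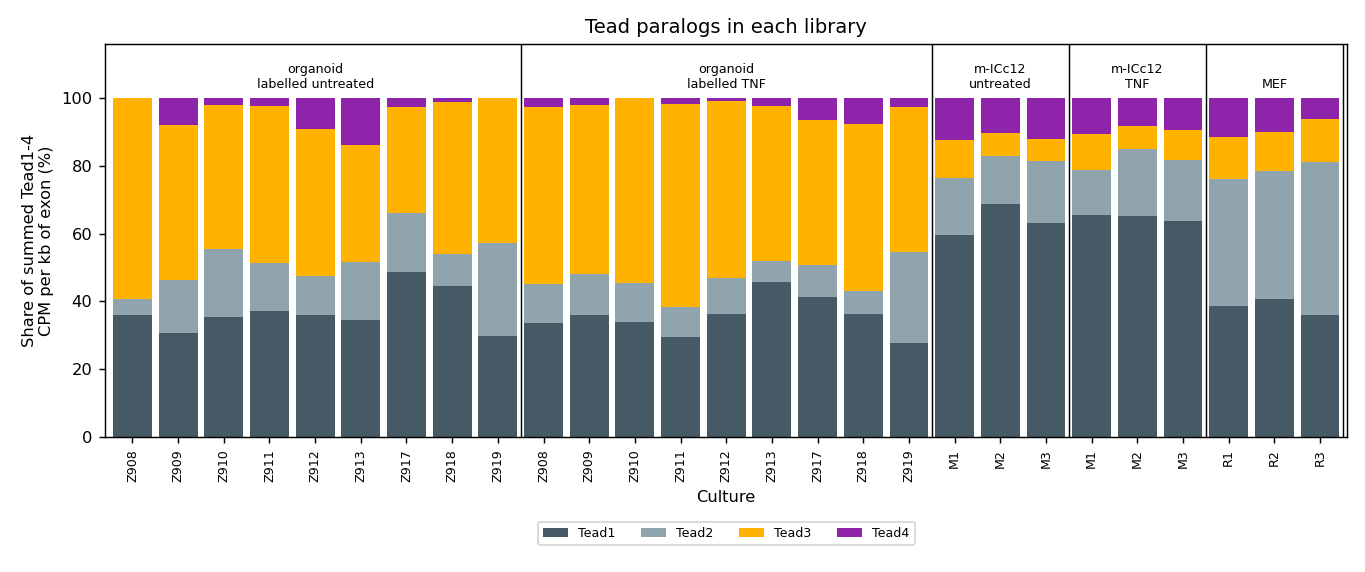
Share of each Tead gene in the summed level of Tead1 to Tead4 (percent of CPM per kilobase of exon) in the 27 libraries, 1 stacked bar per library, grouped by cell type and treatment label. Tead3 takes 31.6 to 59.95% of every organoid bar and at most 12.7% of any m-ICc12 or MEF bar.

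The 2 angiomotin genes among the members differed in direction between organoids and m-ICc12. Amot (X:145446425-145505181, minus strand), which encodes the founding angiomotin, was at 84.5, 135 and 149 CPM in organoids labelled untreated. It was at 27.2, 38.1 and 40.6 CPM in m-ICc12 and at 123, 132 and 103 CPM in MEF. Organoids lay above m-ICc12 without overlap (1.86 ± 0.19 log2 units, adjusted p = 2.5e-07) and overlapped MEF, with a difference of 0.09 and a 95% interval of -0.21 to 0.39 (adjusted p = 0.6). Amotl2 (9:102716672-102733418, plus strand) was at 3.12, 8.20 and 13.03 CPM in organoids, at 291, 236 and 232 CPM in m-ICc12, and at 254, 284 and 264 CPM in MEF. It was lower in organoids by a log2 fold change of -4.97 ± 0.28 and -5.05 ± 0.28 (adjusted p = 1.9e-10 and 1.3e-10), and between m-ICc12 and MEF the difference was -0.13 (95% interval -0.39 to 0.13).

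Lats2 (14:57689662-57758388, minus strand), a kinase gene and a YAP target, was at 0.261, 3.86 and 7.06 CPM in organoids labelled untreated. It was at 30.4, 33.8 and 41.2 CPM in m-ICc12 and at 123, 130 and 98.9 CPM in MEF. The 3 cell types did not overlap, and organoids were lower by a log2 fold change of -3.30 ± 0.53 against m-ICc12 (adjusted p = 4.8e-05) and -5.04 ± 0.47 against MEF (adjusted p = 9.3e-08). Its annotated exons share 2955 bases on the same strand with Gm49361, a gene with no row in the count data. The paralog Lats1, named here for comparison after its values had been seen, is set beside it, without a test of the difference between the paralogs. Per kilobase of exon Lats1 was at 14.2 ± 2.1 in organoids, 11.3 ± 1.9 in m-ICc12 and 18.6 ± 0.1 in MEF, whereas Lats2 was at 0.503 ± 0.293, 5.04 ± 0.79 and 16.8 ± 2.3 (SD; n = 9, 3 and 3).

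Ankrd1 (19:36111961-36120099, minus strand), which encodes a nuclear ankyrin repeat protein and is widely used as a readout of YAP and TAZ, was as scarce in organoids as Wwtr1. It was at 0.0382, 0.241 and 0.975 CPM in the organoid libraries labelled untreated, from 1 to 31 counts a library. The m-ICc12 libraries held 160, 154 and 198 CPM and the MEF libraries 122, 128 and 122 CPM. The log2 fold change of organoids was -8.90 ± 0.41 against m-ICc12 (adjusted p = 1.4e-11) and -8.45 ± 0.44 against MEF (adjusted p = 5.1e-11). Only 3 of the 9 organoid libraries reached 10 counts, so Ankrd1 too passed the filter through the other cell type alone, and 1 library lay under the limit of 3 counts.

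Counted together, 3 of the 10 members (Yap1, Tead3 and Amot) were higher and 7 were lower in organoids than in m-ICc12. Among all genes tested, 31.6% were called higher and 29.3% lower in that comparison. All 10 members had ranges that did not overlap, beside 23.6% of all genes not overlapping upward and 25.9% downward. Against MEF, 0 of the 10 were higher and 9 were lower, beside 34.6% and 32.6% of all genes (9 called by DESeq2), and 8 lay below MEF without overlap, beside 29.8% of all genes. The counts were 10 and 9 as well when the organoid and m-ICc12 libraries labelled TNF-treated were used instead. These comparisons share the organoid libraries, and Wwtr1 and Ankrd1, which entered the tests through the group where they were high, had to differ.

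Between m-ICc12 and MEF 1 member was higher and 6 were lower in m-ICc12, beside 28.1% and 31.2% of all genes tested. Yap1 (log2 fold change -0.94 ± 0.12, adjusted p = 2.7e-05), Tead2 (-2.37 ± 0.20), Tead3 (-1.71 ± 0.20), Amot (-1.80 ± 0.18) and Lats2 (-1.78 ± 0.17) were lower with ranges that did not overlap, as was so for 33% of all genes in that direction. Wwtr1 differed by 0.20 (95% interval -0.05 to 0.45, adjusted p = 0.19). Tead1 missed the threshold (-0.36 ± 0.15, adjusted p = 0.059) and passed it without culture M3 (-0.49, adjusted p = 0.027). Tead4 (-0.77 ± 0.30, adjusted p = 0.039) lost its call without M1, M2, R1 or R2, in the fit over all 27 libraries (-0.73, adjusted p = 0.66) and with exchanged labels (-0.89, adjusted p = 0.051). Ankrd1 (0.41 ± 0.14, adjusted p = 0.022) lost its call without M3 (0.28, adjusted p = 0.11), R1 or R3, and with the m-ICc12 libraries labelled TNF-treated its difference was -0.0047. With those libraries 5 members were called, none of them higher.

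The effectors are embedded in a wider pathway, described here by lists of its other genes. Of 22 Hippo core kinases, adaptors and upstream regulators, 20 were tested against m-ICc12, with 5 higher and 12 lower in organoids and a median log2 fold change of -0.87 (0.03 over all genes tested, of which 31.6% were called higher and 29.3% lower). Against MEF, 2 were higher and 15 lower of 21, with a median of -1.01, beside 34.6% and 32.6% of all genes. Of the 15, Fat4 passed the filter on low counts only through MEF and could only be called lower. Ptpn14, a phosphatase gene whose product binds YAP, was at 0.186 to 3.09 CPM in organoids, 215 to 250 CPM in m-ICc12 and 107 to 137 CPM in MEF. Wwc2, a relative of the upstream regulator Kibra, was at 0.138 to 4.85 CPM in organoids against 85.4 to 100.3 CPM and 220 to 251 CPM. Amotl1, the other angiomotin gene, was at 0.0689 to 8.21 CPM against 80.8 to 83.6 CPM and 78.8 to 104.5 CPM, so that 2 of 3 angiomotin genes were low in organoids. Fat4, an atypical cadherin gene, was at 10.97 to 13.1 CPM in MEF and at most 0.523 CPM in organoids and 0.841 CPM in m-ICc12.

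The core kinase genes Stk3 and Stk4, which encode the MST kinases, and Nf2, the gene of the upstream activator merlin, were chosen for description after their values were seen. Stk3 was at 21.6 to 36.2 CPM in organoids, 44.2 to 66.8 CPM in m-ICc12 and 50.01 to 58.2 CPM in MEF, and was lower in organoids than in both (log2 fold change -0.97 ± 0.18 and -1.01 ± 0.17, adjusted p = 0.00019 and 5.5e-05). Stk4 was lower in organoids than in m-ICc12 (-0.75 ± 0.12, adjusted p = 4.2e-05) and differed from MEF by -0.03 (95% interval -0.26 to 0.20). For Nf2 no difference was called, with -0.05 against m-ICc12 (-0.31 to 0.20) and 0.23 against MEF (-0.02 to 0.49). In the Vgll family, whose products compete for TEAD, 2 of 4 genes were tested. Vgll4, a TEAD repressor, was higher in organoids than in m-ICc12 (0.71 ± 0.25 log2 units, adjusted p = 0.023) and MEF (1.36 ± 0.27, adjusted p = 0.00028). Vgll3 was at 184 to 197 CPM in MEF, 0.817 to 2.11 CPM in m-ICc12 and 0.0332 to 1.91 CPM in organoids. With an organoid median of 0.174 CPM, it passed the filter against MEF only through MEF and could only be called lower there.

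Of 22 YAP/TAZ-TEAD target genes, which include Ankrd1, Amotl2 and Lats2, 20 were tested against m-ICc12. None was higher in organoids and 17 were lower by edgeR (17 at an unadjusted p under 0.05 and 16 by DESeq2), with a median log2 fold change of -5.17, or -4.90 with 1 gene at its detection bound, beside 29.3% of all genes called lower. Without the 3 members 14 of 17 were lower. Ankrd1, Foxf2, Fjx1, Nt5e, Tgfb2 and Rbms3 had medians of 0 to 0.241 CPM in organoids labelled untreated. They passed the filter on low counts only through m-ICc12 and could only be called lower. Those among them that the naming rule does not cover are named for that reason. Against MEF 17 of 21 were lower and 1 higher, with a median of -5.06, beside 32.6% and 34.6% of all genes. There Ankrd1, Foxf2, Fjx1, Ccdc80, Tgfb2 and Rbms3 passed the filter only through MEF, with the same limit. The gene that was higher, Gadd45a, a stress-response gene named here for that reason, differed by 0.96 ± 0.31 log2 units (adjusted p = 0.011). Between m-ICc12 and MEF 8 targets were higher and 11 lower of 21, with a median of -0.54, beside 28.1% and 31.2% of all genes.

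Among single targets, Axl, a receptor tyrosine kinase gene, was at 0.199 to 2.17 CPM in organoids, 285 to 505 CPM in m-ICc12 and 452 to 643 CPM in MEF. Ccn2 (CTGF), a matricellular protein gene and a standard YAP readout, was at 0.310 to 2.26 CPM against 161 to 288 CPM and 333 to 408 CPM. Ccdc80 was at 197 to 233 CPM in MEF and at most 0.463 CPM in organoids and 1.03 CPM in m-ICc12. Foxf2, a mesenchymal transcription factor gene, had no count in any organoid library labelled untreated and 4.89 to 5.45 CPM in MEF, so that organoids were at least 30.9-fold lower, with a floor of 3 counts per library. Of the 9 fibroblast markers, Vim was at 1847 to 3007 CPM in m-ICc12 labelled untreated, and the other 8 (Col1a1, Col1a2, Col3a1, Pdgfra, Pdgfrb, Thy1, Dcn and Lum) were under 1 CPM there. Between organoids and either other cell type, the cell type and the activity of YAP/TAZ cannot be told apart.

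**Figure D4:**
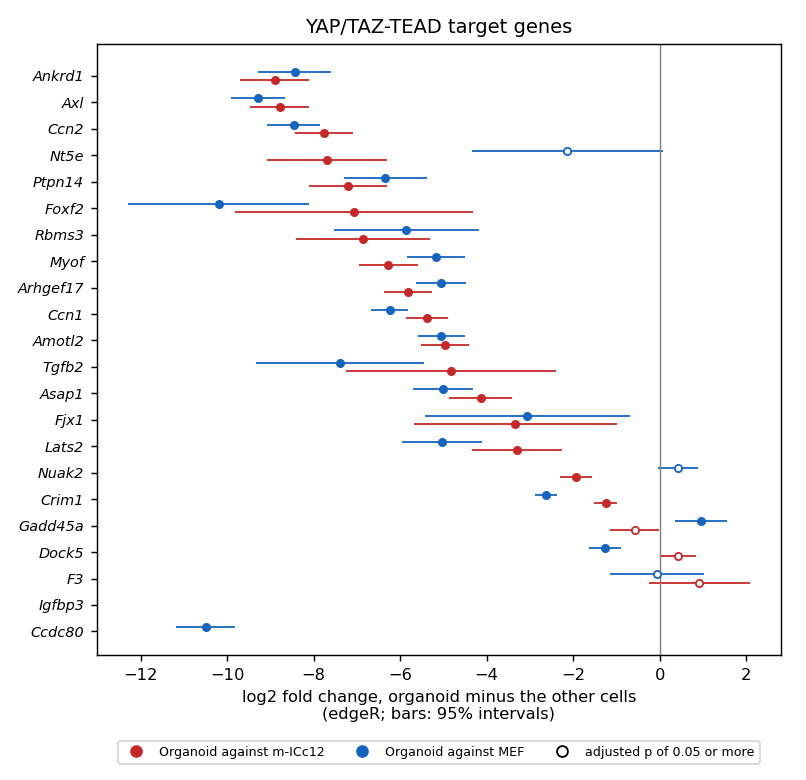
Log2 fold change of the YAP/TAZ-TEAD target genes in organoids against m-ICc12 (red) and against MEF (blue), libraries labelled untreated. Bars give 95% intervals, a normal approximation from the SE of the edgeR fit. Open points had an adjusted p of 0.05 or more, and untested genes have no point. Of 20 genes tested, 17 lie below 0 and past the threshold against m-ICc12, and 17 of 21 do so against MEF.

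A list of 10 genes linked to YAP-dependent repair of the intestinal epithelium did not move as one. Against m-ICc12 all 10 were tested, with 3 higher (Areg, Ereg and Il1rn) and 7 lower in organoids, beside 31.6% and 29.3% of all genes. Ereg passed the filter on low counts only through organoids and could only be called higher. Il33, with a median of 0.159 CPM in organoids, passed only through m-ICc12 and could only be called lower, and is named for that reason. Against MEF the genes called included Areg and Il1rn, which were higher, and Anxa1, which was lower. Ereg and Areg encode the EGF family ligands epiregulin and amphiregulin. Ereg was at 2.48 to 42.2 CPM in organoids and had at most 1 count in any m-ICc12 library labelled untreated, so that organoids were at least 203-fold higher with the same floor. It was at 11.7 to 16.4 CPM in MEF (log2 difference 0.36, adjusted p = 0.62). Areg was at 17.2 to 57.7 CPM in organoids against 3.13 to 3.65 CPM in m-ICc12 and 0.192 to 1.03 CPM in MEF. Il1rn, the gene of the interleukin-1 receptor antagonist, was at 9.66 to 75.8 CPM against 0.0586 to 0.409 CPM and 0.427 to 2.45 CPM. Anxa1, which encodes annexin A1, went the other way, with 15.8 to 80.3 CPM in organoids, 942 to 1100 CPM in m-ICc12 and 568 to 771 CPM in MEF.

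The windows upstream of the members' start sites are shown for the 5 genes in which the TEAD core motif CATTCC or its complement GGAATG was found. RefSeq start sites on GRCm38.p6 were at hand for 8 members, while Tead1 and Tead4 were not in the table. In the 250 bases upstream, 5 of the 8 held the motif on either strand, beside 13.2% of 16353 genes. The AP-1 motif TGANTCA, searched on both strands, was found in 0 of the 8, beside 7.15% of genes. The sequences run 5′ to 3′ on the gene's strand with the motif in capitals and 12 bases on either side. The Yap1 window (chr9:8004720-8004749) and the Wwtr1 window (chr3:57576029-57576058) each carried 1 match at a like distance from the start, 135 and 130 bases. The windows of Amotl2 (chr9:102717727-102717756) and Ankrd1 (chr19:36120037-36120066 and chr19:36119950-36119979) overlap annotated exons of these genes. Ankrd1 is shown with both of its matches, and of the 3 matches of Tead3 the one outside annotated exons is shown.
Yap1: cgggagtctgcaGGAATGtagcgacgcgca
Wwtr1: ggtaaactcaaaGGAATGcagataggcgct
Tead3 (chr17:28350970-28350999): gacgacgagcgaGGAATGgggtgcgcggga
Amotl2: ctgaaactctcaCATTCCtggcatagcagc
Ankrd1, 204 bases upstream: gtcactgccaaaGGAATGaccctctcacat
Ankrd1, 117 bases upstream: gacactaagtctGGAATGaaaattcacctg
The motif did not follow the direction of the differences: Yap1 and Tead3, higher in organoids than in m-ICc12, and Wwtr1, Amotl2 and Ankrd1, lower there, all held it. A match describes letters and was not tested for binding.

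No member was called between the treatment labels. In organoids 8 of the 10 passed the filter on low counts, with Wwtr1 and Ankrd1 below it, and 0 of these 8 were called by edgeR (0 at an unadjusted p under 0.05 and 0 by DESeq2), beside 1.39% of all genes tested. The Yap1 difference, labelled TNF-treated minus labelled untreated, was 0.03 log2 units with a 95% interval of -0.13 to 0.19. That of Amot was 0.04 (-0.15 to 0.23) and that of Tead3 0.01 (-0.25 to 0.27). The intervals were wide for Tead4 (-2.49 to 1.02) and Lats2 (-0.59 to 1.34). Tead2 was lower under the TNF label in 8 of 9 cultures, with a log2 fold change of -0.62 ± 0.35 (adjusted p = 0.66), and Tead1 in 7 of 9, with -0.21 ± 0.13 (adjusted p = 0.75). These fits did not pair the libraries of a culture. With a replicate block in the edgeR fit, the adjusted p was 0.45 for Tead2 and 0.36 for Tead1. Wwtr1 was higher under the TNF label in 7 of 9 cultures, at 0.120 to 0.986 CPM against 0.0887 to 0.405 CPM, and the groups overlapped.

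In m-ICc12 all 10 were tested and 0 were called by edgeR (1 at an unadjusted p under 0.05 and 0 by DESeq2), beside 0.11% of all genes. The gene with the unadjusted p of 0.029 was Ankrd1, at 91.1, 136 and 143 CPM in the libraries labelled TNF-treated and 160, 154 and 198 CPM in those labelled untreated. These did not overlap, as was so for 5.59% of all genes in that direction, and the log2 fold change was -0.45 ± 0.19 (adjusted p = 1.0). The lowest value came from culture M1, the library of 6071103 counts. A difference in the response to the label between m-ICc12 and organoids was called for 0 of the 10 members by edgeR (0 at an unadjusted p under 0.05 and 0 by DESeq2, beside 0.159% of all genes). With the labels exchanged these differences change sign, and 0 members are called.

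**Figure D5:**
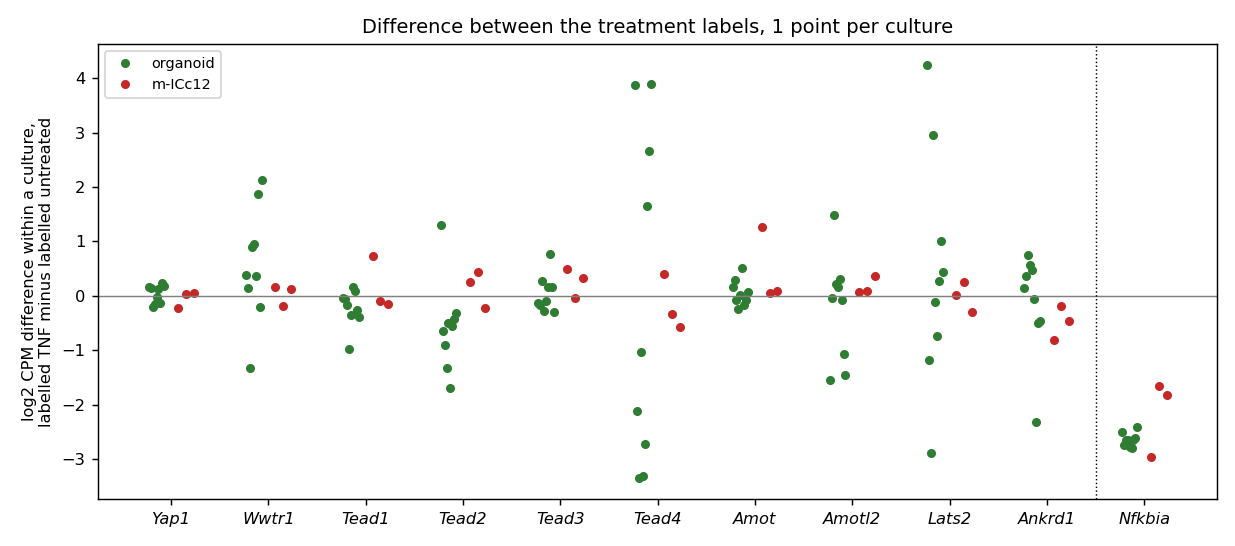
Difference in log2 CPM (prior count of 2) between the 2 libraries of a culture, labelled TNF minus labelled untreated, for the 10 members and for the TNF target Nfkbia; 1 point per culture, 9 organoid cultures in green and 3 of m-ICc12 in red. The members' points spread around 0, and those of Nfkbia all lie below it.

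No member was called between donor facilities. Since the mice of a facility were cohoused littermates, facility cannot be told apart from litter or cage. Among organoid libraries labelled untreated, 0 of 9 members tested were called by edgeR between the 3 GF and the 6 SPF cultures (0 at an unadjusted p under 0.05 and 0 by DESeq2), beside 0.0325% of all genes. Yap1 was at 119 to 138 CPM in GF cultures, 111 to 140 CPM in SR and 113 to 167 CPM in SE. Its GF to SPF difference was -0.03 log2 units (95% interval -0.30 to 0.24). Between SR and SE 0 of 8 were called (0 at an unadjusted p under 0.05 and 0 by DESeq2), beside 0% of all genes. The interaction of facility (GF or SPF) and treatment label was called for 0 of 10 members (0 by DESeq2, and 0% of all genes). At an unadjusted p under 0.05 there was 1, Tead4. Its difference, labelled TNF-treated minus labelled untreated, was higher by 4.48 ± 1.94 log2 units in GF than in SPF cultures (adjusted p = 1.0, edgeR). It was also the 1 member past the study's own thresholds, which 2.16% of all genes passed. Tead4 was higher under the TNF label in all 3 GF cultures and in SR culture Z908. It was lower in all 3 SE cultures and in SR cultures Z909 and Z910. In Z908, Z910 and the GF culture Z919, 1 library held 0 counts.

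The genes whose pattern over the 27 libraries was most like that of Yap1 were Ncbp1 (Pearson r = 0.921 of log2 CPM), Mrto4 (0.917) and G3bp1 (0.912), among 14132 genes. Ncbp1 followed the same order, with means of 107 CPM in organoids, 69.7 CPM in m-ICc12 and 173 CPM in MEF. Wwtr1 was most like Hoxa9 (r = 0.993), Hoxa10 (0.990) and Flt1 (0.987). Hoxa9 averaged 0.0209 CPM in organoids, 39.4 CPM in m-ICc12 and 28.9 CPM in MEF. These correlations run over libraries that form separate clusters by cell type, so they describe mainly the cell type means.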

How the data were processed

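RNA was poly-A selected, and libraries were made with a TruSeq kit that the labels call stranded and the study's methods name without that word, so whether the reads mark strand is unclear. After trimming, reads were aligned by the authors to GRCm38 with STAR (2.5.4b in the submitters' processing notes), and they deposited whole-number counts per gene (matched reads) for each library, without normalization. Gene IDs were matched to GENCODE symbols for 22214 of 22524 IDs. CPM were computed from these counts with TMM factors over all 27 libraries, and levels per kilobase use the union of a gene's exons or of its coding sequence.

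Groups were compared with edgeR 4.0.16 (R 4.3.3), quasi-likelihood F-test, over genes that reached 10 counts in 50% or more of either group's libraries. Calls had a Benjamini-Hochberg adjusted p under 0.05. Log2 fold changes are given with SE. Comparisons of cell types and facilities used libraries labelled untreated. Ratios and shares were compared by exact permutation over libraries with scipy 1.17.1. The fits were tested on simulated counts. Alternatives were DESeq2 1.42.0, no filter, the study's thresholds (p under 0.05 and a log2 change over 0.5), a fit over all 27 libraries, exchanged labels, each culture left out, a replicate block, a facility covariate and coding length.

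The members, gene lists and tests were chosen with earlier results of these data known. Named genes were all members and, per list, the 3 called genes with the largest change against m-ICc12 and against MEF, beyond which a gene is said to be chosen later. One gene that this rule names is not reported here. Organoid libraries labelled untreated and TNF-treated came from the same mouse's culture, and their deviations from the group means correlated within a culture (mean r = 0.171, lowest 0.0821, against -0.0200 between cultures). The 3-count detection limit covers counting error only.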

Additional observations from a re-analysis of the deposited data

Results flagged for a closer look

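In the 20 groups of 9 organoid libraries (10 members by 2 treatment labels), 3 held 1 library far from the other 8 by Dixon's criterion. For normally distributed values it marks about 1 group in 20 by chance. CPM from a few counts need not be so distributed, so the rate here is not known. Wwtr1 was at 0.405 CPM in culture Z910 labelled untreated, from 7 counts in a library of 18081246. The next highest, Z918, had 0.232 CPM from 7 counts as well, in a library of 30339856, so these 2 differed in depth only. Tead2 was at 13.1 CPM in culture Z919 labelled TNF-treated, where the next had 6.03 CPM, and Z919 was also the highest for Tead2 among libraries labelled untreated, at 16.3 CPM. Ankrd1 was at 1.12 CPM in culture Z910 labelled TNF-treated, from 28 counts, where the next had 0.366 CPM.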

How the results depend on the processing

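The number of members called per comparison was within 1.5 times the main count in the alternatives run, except that the study's thresholds, which use unadjusted p-values, gave 1 member (Tead4) for the interaction of GF or SPF origin with the treatment label. The 1 member higher in m-ICc12 than in MEF, Ankrd1, was not called in 5 alternatives: the fit over all 27 libraries, exchanged labels, and without M3, R1 or R3. Member log2 fold changes kept the call, and for called members the direction, in 1099 of 1126 alternatives. The call was lost in 25 and gained in 1. In 1 the direction reversed, where exchanged labels put Ankrd1 at -0.0047 in m-ICc12 against MEF. Members not called were counted as kept whatever their sign. That sign changed for some of them, as it did for treatment-label differences with exchanged labels. The ratio of Wwtr1 to Yap1 ranged from -10.39 to -10.12 (organoids minus m-ICc12) and from -9.24 to -8.98 (minus MEF) with 1 culture left out, and its adjusted p, like those of the called Tead1, Tead2 and Tead3 shares, rose to 0.091 on leaving out any m-ICc12 or MEF culture compared, since fewer libraries raise the smallest exact permutation p. With the replicate block 0 members were called for the treatment label in organoids and 0 in m-ICc12. The replicate numbers of m-ICc12 pair samples by number only, with correlations of -0.0066 to 0.0925, and 1 of 3 best with its own. Low counts limit Wwtr1, Ankrd1 and Tead4 in organoids.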
